A study of Homo sapiens with 6 samples.

Results

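10 genes that have been tied to ERG-positive prostate cancer were followed after NEDD9 was silenced: TDRD1, PLA1A, NCALD, CRISP3, PLAU, PLAT, ADAM19, ADAMTS1, ARHGDIB and AMACR. They were found by symbol, and each had its own entry among the 58735 genes of the deposited count table. The material was VCaP, a human prostate cancer line that carries the TMPRSS2-ERG fusion and was grown in DMEM with 10% serum. The 3 shNEDD9 libraries came from cells stably infected with a short hairpin RNA (shRNA) against NEDD9, and the 3 shNTC libraries from cells infected with a non-targeting shRNA. The design text calls each set a biological triplicate of stable cells. How many hairpins or clones were used is not given in the sources used here.

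ERG is an ETS transcription factor, normally of endothelial and blood-forming cells. In many prostate cancers a rearrangement places it behind the androgen-driven promoter of TMPRSS2, and it is then made in luminal epithelial cells. ETS proteins bind DNA around a GGAA core. The 10 genes serve unlike functions: germline RNA silencing (TDRD1), lipid and fatty acid metabolism (PLA1A, AMACR), calcium sensing (NCALD), secretion (CRISP3), GTPase control (ARHGDIB) and extracellular proteolysis (PLAU, PLAT, ADAM19, ADAMTS1).

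Libraries held 5956486 to 9902002 counts in shNEDD9 and 3217276 to 7492244 in shNTC. Levels are given as CPM, the count of a gene scaled to library size with TMM factors, and 3 counts, the detection floor used here, equalled 0.303 to 0.932 CPM. NEDD9 was at 137 ± 1.03 CPM in shNEDD9 and 355.7 ± 14.3 CPM in shNTC (SD, n = 3 each). Pairs of replicates differed by slightly more than counting alone gives (chi-square per degree of freedom 1.14 to 1.20), and none was counted as a repeat of another. The spread beyond counting was small, with a common coefficient of variation of 1.65% in edgeR. Adjusted p-values here are set against that spread, from which variation between hairpins or infections cannot be told. All 10 genes of a list of luminal prostate markers were tested, with a summed level of 18156 to 18686 CPM in shNEDD9 and 15430 to 15709 CPM in shNTC.

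ERG was at 190.2, 188.5 and 193.9 CPM in shNEDD9, against 256.2, 249.8 and 267.5 CPM in shNTC, and TMPRSS2 at 171.8 ± 5.97 CPM in shNEDD9, against 264 ± 7.08 CPM in shNTC (SD, n = 3 each). The ERG difference was a log2 fold change of -0.44 (SE 0.04), with an adjusted p of 3.84e-34 in the edgeR quasi-likelihood test, corrected over all genes by Benjamini-Hochberg. The table does not separate fusion transcripts from those of an intact ERG gene.

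Of the 10 genes, 9 passed the filter on low counts and PLAU did not. At an adjusted p under 0.05, 5 were lower in shNEDD9 (ADAM19, ADAMTS1, NCALD, AMACR and ARHGDIB), 3 were higher (CRISP3, PLAT and PLA1A) and TDRD1 was not called. Changes were common in this comparison: of the 13958 tested genes, 71.8% had no overlap between the libraries of either group, as did 8 of the 9, and 35.9% were called lower, 35.5% higher and 71.4% in either direction. A decrease of at least 2-fold was less common, at 9.22% of tested genes, and 4 of the 9 had one (ADAM19, ADAMTS1, NCALD and AMACR). An increase of at least 2-fold was found in 7.67% of tested genes and in 0 of the 9. ADAM19 passed the filter only through its shNTC libraries and so had to differ, and these counts describe the genes without supporting a direction.

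**Figure D1:**
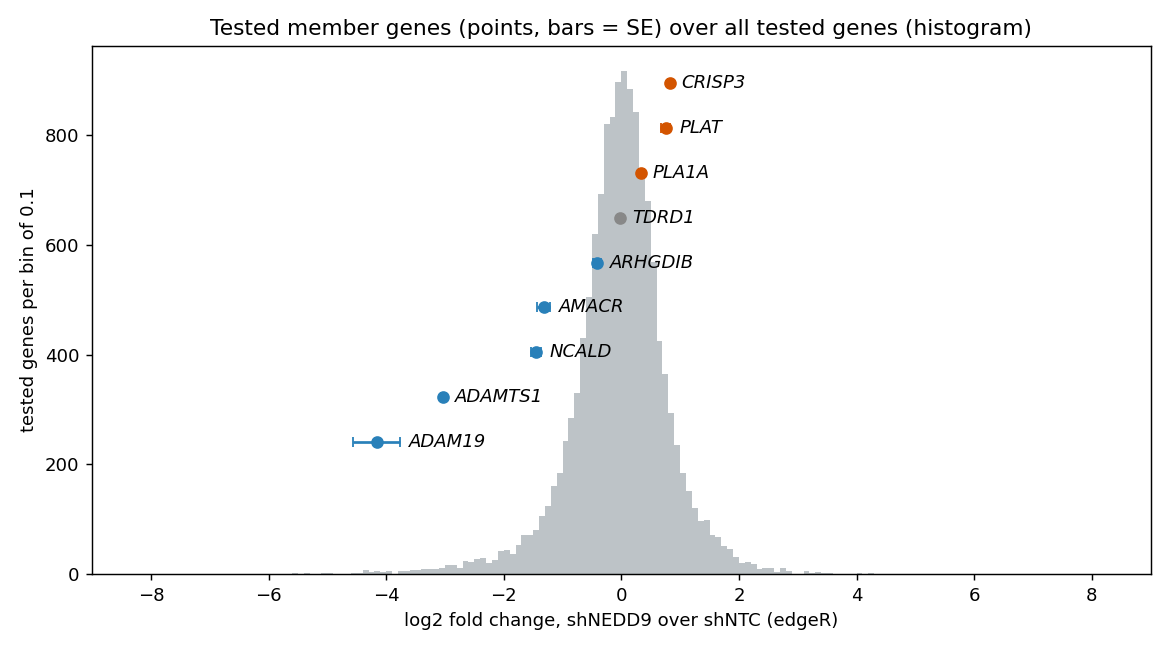
Log2 fold change of the 9 tested genes, shNEDD9 over shNTC (points, with SE as bars), drawn over a histogram of all 13958 tested genes in bins of 0.1. Points are set at different heights for legibility, with blue for lower, orange for higher and grey for not called. ADAM19 and ADAMTS1 lie in the lower tail and TDRD1 at the centre.

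TDRD1 encodes a tudor-domain protein that in the mouse germline helps load PIWI proteins with piRNAs, and it is among the genes best known to follow ERG in prostate tumours. It was at 131, 141 and 132 CPM in shNEDD9, against 136, 143 and 133 CPM in shNTC. The libraries of the groups overlapped, and the log2 fold change was -0.02 (SE 0.04, edgeR adjusted p = 0.768). From the summed counts, 3203 in shNEDD9 and 2317 in shNTC, the ratio of rates was 1.002 with an exact binomial 95% interval of 0.95 to 1.06, which covers counting error only. This ratio is scaled by library totals without TMM factors, unlike the fitted log2 fold change. ERG itself was called lower in the same libraries, and the difference between the ERG and TDRD1 changes was not tested.

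Most genes that work with TDRD1 in germ cells were near the floor. Of 19 other piRNA pathway genes, 8 passed the filter, 3 were called higher, 3 lower and 2 were not called, with a median log2 fold change of 0.02 (0.00 over all tested genes). Calls over all tested genes were 35.5% higher and 35.9% lower. The PIWI genes PIWIL1, PIWIL2, PIWIL3 and PIWIL4 had 2, 8, 1 and 18 counts over the 6 libraries. MOV10L1, a helicase gene of piRNA biogenesis, was 2.64-fold higher at 2.34 ± 0.14 CPM in shNEDD9 and 0.94 ± 0.32 CPM in shNTC, but it passed the filter only through its shNEDD9 libraries and so had to differ. HENMT1, which methylates piRNA ends, was 1.42-fold higher. TDRD7 and TDRD6, tudor-domain relatives, were 2.48-fold and 2.19-fold lower, and PLD6, a mitochondrial surface enzyme of the pathway, was 1.26-fold lower. TDRD5 was 1.44-fold higher, but this call ended with DESeq2 (adjusted p = 0.0515). It also ended when shNEDD9 replicate 3 or shNTC replicate 1 was left out (adjusted p of 0.0601 and 0.0716 in edgeR). Of 6 germ cell markers, DDX4, DAZL, MAEL and SYCP1 had 0 counts in every library, and the list summed to 0.202 to 1.14 CPM in shNEDD9 and 0.626 to 1.08 CPM in shNTC.

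Promoter windows of 7 of the 10 genes were found in RefSeq (GRCh38.p14), each running from 250 bases before to 50 after an annotated start. The windows of 4 genes are shown because they contrast genes that hold an extended ETS match with those of the largest rise and the largest fall among the tested genes with a window. Letters run 5′ to 3′ on the strand of the gene, and capitals mark each GGAA core or its reverse complement TTCC.
TDRD1 (chr10:114179037-114179336, plus strand): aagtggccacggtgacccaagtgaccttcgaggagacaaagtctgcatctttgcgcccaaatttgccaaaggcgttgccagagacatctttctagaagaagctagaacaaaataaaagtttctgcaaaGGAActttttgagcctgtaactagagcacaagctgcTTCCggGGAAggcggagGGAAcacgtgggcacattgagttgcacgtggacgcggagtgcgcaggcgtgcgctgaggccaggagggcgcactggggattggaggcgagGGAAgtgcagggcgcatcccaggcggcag
ARHGDIB (chr12:14948847-14949146, minus strand): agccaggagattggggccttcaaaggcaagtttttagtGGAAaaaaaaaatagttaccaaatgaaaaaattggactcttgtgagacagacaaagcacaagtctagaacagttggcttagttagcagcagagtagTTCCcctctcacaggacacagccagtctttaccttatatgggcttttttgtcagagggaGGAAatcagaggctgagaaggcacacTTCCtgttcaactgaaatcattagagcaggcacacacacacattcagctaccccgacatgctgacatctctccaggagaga
CRISP3 (chr6:49744339-49744638, minus strand): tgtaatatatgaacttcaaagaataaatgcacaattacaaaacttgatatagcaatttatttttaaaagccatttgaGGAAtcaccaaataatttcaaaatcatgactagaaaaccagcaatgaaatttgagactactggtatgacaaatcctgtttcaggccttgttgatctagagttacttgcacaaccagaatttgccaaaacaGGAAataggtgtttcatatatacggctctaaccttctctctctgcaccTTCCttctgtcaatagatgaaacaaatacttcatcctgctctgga
ADAM19 (chr5:157575726-157576025, minus strand): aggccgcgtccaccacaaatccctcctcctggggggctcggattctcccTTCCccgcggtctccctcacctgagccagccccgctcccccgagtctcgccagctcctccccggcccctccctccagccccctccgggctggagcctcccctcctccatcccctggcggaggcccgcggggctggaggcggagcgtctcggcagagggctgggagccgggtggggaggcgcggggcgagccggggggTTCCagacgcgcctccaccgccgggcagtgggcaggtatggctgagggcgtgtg

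Both strands were searched for GGAA and for the extended forms CCGGAAG and CAGGAAG, each of which holds GGAA within it. GGAA occurred in all 12 windows of the 7 genes, as it did in 95.5% of the 35116 windows of all genes. CCGGAAG occurred in 2 windows, overlapping ones of TDRD1 (10.3% of all windows), where the match in the window shown begins 87 bases before the start. CAGGAAG occurred in 1 window (12.7% of all windows), from ARHGDIB, whose other windows lack it. The match begins 32 bases before a start that lies inside the GENCODE gene. All other windows of the 7 genes, those of CRISP3 and ADAM19 among them, hold neither extended form. The windows of CRISP3 and ADAM19 differ in base composition, with 34% G and C and 1 CpG in CRISP3, 75.7% and 26 CpG in ADAM19, and medians of 58.7% and 14 CpG over all windows. A match describes the letters only, and binding was not measured here.

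**Figure D2:**
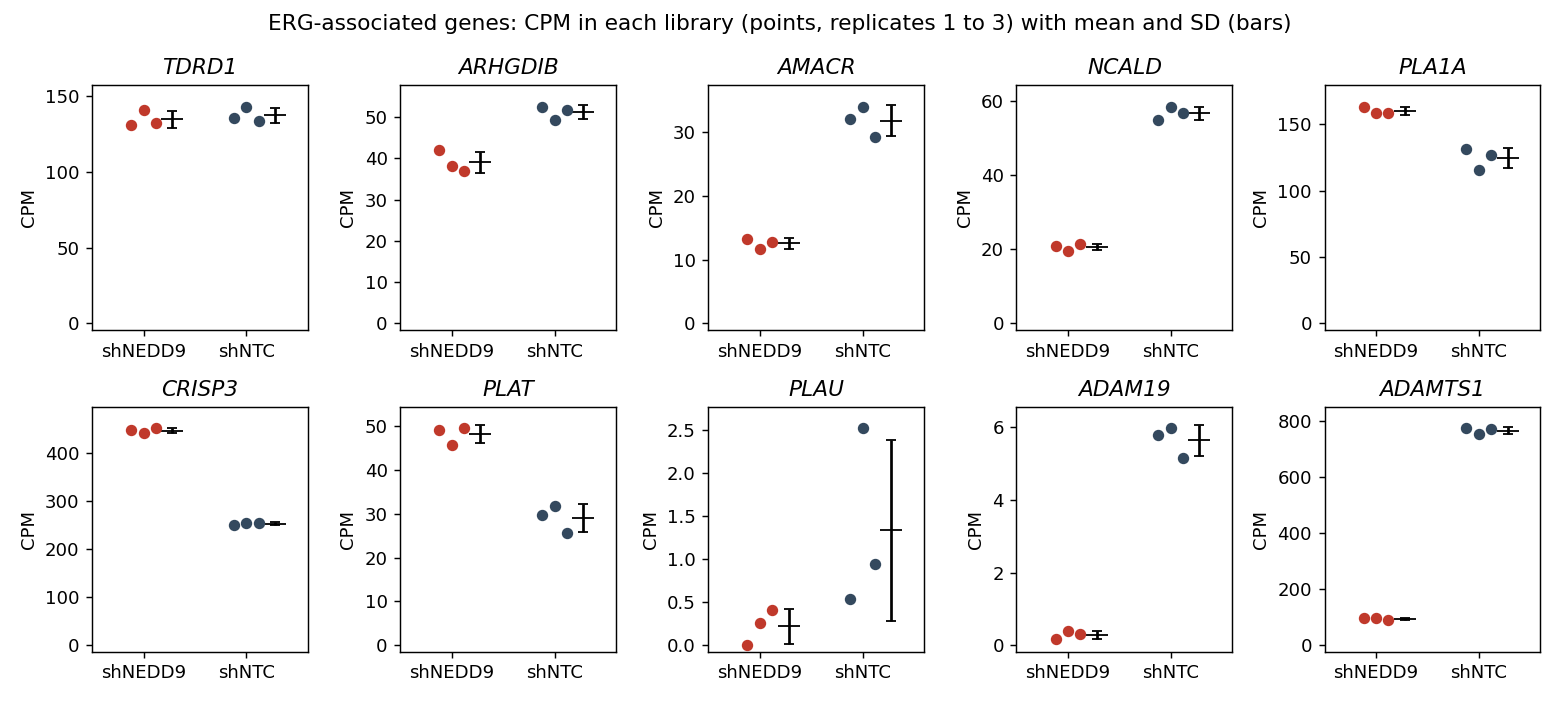
CPM of each of the 10 genes in the 3 shNEDD9 libraries (red points, left) and the 3 shNTC libraries (dark points, right), with the mean and SD as bars. Each vertical axis has its own scale and includes 0. The groups stand apart for the 8 called genes and overlap for TDRD1. PLAU, which was not tested, also has no overlap, at 0 to 0.403 CPM in shNEDD9 and 0.538 to 2.51 CPM in shNTC, from few counts.

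ADAMTS1 and ADAM19, the metalloprotease genes, had the largest decreases. ADAMTS1 encodes a secreted protease that cleaves the matrix proteoglycan versican (GRCh38 chromosome 21, 26835747 to 26845409, minus strand). It was at 96, 97.4 and 89.4 CPM in shNEDD9, against 775, 753 and 772 CPM in shNTC. Every shNEDD9 library was far below every shNTC library, and the change was 8.19-fold lower (log2 fold change -3.03, SE 0.03, edgeR adjusted p below 1e-300). Of all tested genes, 0.788% had a lower log2 fold change.

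ADAM19 encodes a membrane-anchored metalloprotease that sheds growth factors such as neuregulin (chromosome 5, 157395534 to 157575775, minus strand). It had 1, 3 and 3 counts in shNEDD9, which is at or under the floor, against 43, 19 and 33 counts in shNTC. In CPM this was 0.28 ± 0.11 in shNEDD9 and 5.64 ± 0.42 in shNTC (SD, n = 3 each). From the summed counts, 7 in shNEDD9 and 95 in shNTC, it was 18.7-fold lower with an exact binomial 95% interval of 8.74 to 47.8, and the fitted log2 fold change was -4.16 (SE 0.39, edgeR adjusted p = 3.72e-26). CYFIP2, on the opposite strand, shares 62 of the 7704 exon bases of ADAM19, and the strand setting of the counting is not given in the sources used here.

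Of 19 genes (other ADAM and ADAMTS proteases, the substrates VCAN and NRG1, and TIMP inhibitors), 8 were tested, 4 were lower, 1 was higher and 3 were not called, with a median log2 fold change of -0.30. By comparison, 35.9% of all tested genes were called lower and 35.5% higher. ADAM10, a widely expressed sheddase gene, was 2.05-fold lower (99 ± 3.14 CPM in shNEDD9 and 200.5 ± 15.8 CPM in shNTC, n = 3 each) and ADAM9 1.31-fold lower. ADAMTS9, a close relative of ADAMTS1, had 0.16 ± 0.20 CPM in shNEDD9 and 1.78 ± 0.18 CPM in shNTC. It is 1 of the 4 lower genes, but it passed the filter only through shNTC and so had to differ. TIMP2, a metalloprotease inhibitor gene, was 2.35-fold lower, and ADAM15 was 1.30-fold higher. ADAM12, an ADAM19 relative not tested with the filter, had 41 counts in shNEDD9 and 6 in shNTC. VCAN had 1 count over the 6 libraries and NRG1 had 0. ADAMTS5, the neighbour family member of ADAMTS1 on chromosome 21, had 7.

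The plasminogen activators did not share a direction. PLAT, the tissue-type activator (chromosome 8, 42175233 to 42207724, minus strand), was at 49.2, 45.8 and 49.5 CPM in shNEDD9, against 29.7, 31.7 and 25.5 CPM in shNTC. Every shNEDD9 library was above every shNTC library, and PLAT was 1.69-fold higher (log2 fold change 0.76, SE 0.08, edgeR adjusted p = 2.98e-20). PLAU, the urokinase-type activator (chromosome 10, 73909177 to 73917497, plus strand), had 0, 2 and 4 counts in shNEDD9 and 4, 8 and 6 counts in shNTC, near the floor throughout. Its summed counts, 6 in shNEDD9 and 18 in shNTC, gave a 4.14-fold lower rate, with an exact binomial 95% interval of 1.57 to 12.7 for counting error only. PLAU was not tested with the filter, and without it the log2 fold change was -1.98 (SE 0.69, edgeR adjusted p = 0.00945). The gene shares 31.1% of its exon bases with C10orf55 on the opposite strand, which had 1 count in all.

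Of 15 other genes of the plasminogen system, 11 were tested, with 6 lower, 1 higher, 4 not called and a median log2 fold change of -0.51. The shares over all tested genes were 35.9% lower and 35.5% higher. The substrate gene PLG and the inhibitor gene SERPINB2 had 0 counts. PLAUR, the urokinase receptor gene, averaged 3.73 ± 0.43 CPM in shNEDD9 and 4.33 ± 0.55 CPM in shNTC and did not pass (edgeR adjusted p = 0.421). SERPINE2, which inhibits both activators, was 3.60-fold lower (2.76 ± 0.76 CPM in shNEDD9 and 10.5 ± 1.78 CPM in shNTC), and LRP1, the endocytic receptor that clears activator-inhibitor complexes, was 2.08-fold lower. ANXA2, a surface binding site for PLAT and plasminogen, was 1.78-fold lower. ENO1, a glycolysis enzyme that also binds plasminogen at the cell surface, was the 1 gene called higher (2.47-fold).

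CRISP3 encodes a cysteine-rich protein secreted into seminal plasma and is a marker of ERG-positive tumours (chromosome 6, 49727384 to 49744437, minus strand). It was at 448, 443 and 452 CPM in shNEDD9, against 251, 256 and 255 CPM in shNTC. The libraries within a group were nearly alike and the groups did not overlap. The change was 1.77-fold higher (log2 fold change 0.82, SE 0.03, edgeR adjusted p = 1.66e-151), the largest increase among the 9 tested genes.

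Of 10 genes (relatives in the CAP superfamily of secreted proteins, and MSMB, whose protein CRISP3 binds), 3 were tested and each of the 3 was lower. Over all tested genes the share called lower was 35.9%, and the list was not tested as a set. CRISPLD1 was 48.1-fold lower (4.57 ± 0.57 CPM in shNEDD9 and 219 ± 6.28 CPM in shNTC, n = 3 each), GLIPR1 5.80-fold and GLIPR2 2.30-fold lower. CRISP2, a paralogue of CRISP3, was not tested with the filter, but like CRISP3 it had more counts in shNEDD9 (13, 12 and 13) than in shNTC (2, 1 and 0). It was tested and called higher without the filter (log2 fold change 3.08, SE 0.69, edgeR adjusted p = 1.45e-05), and when shNTC replicate 2 or 3 was left out. In the fits that left out a replicate, CRISP2 passed the filter only through shNEDD9 libraries and so had to differ. CRISP1 and CRISPLD2 had 0 counts, and MSMB had 29 over the 6 libraries.

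PLA1A encodes a secreted phospholipase that turns phosphatidylserine into the signalling lipid lysophosphatidylserine (chromosome 3, 119597842 to 119629811, plus strand). It was at 163, 158 and 159 CPM in shNEDD9, against 131, 116 and 127 CPM in shNTC. The groups did not overlap, and the change was small, 1.26-fold higher (log2 fold change 0.34, SE 0.04, edgeR adjusted p = 1.86e-14). A log2 fold change below that of PLA1A was found in 70.7% of tested genes.

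Receptors for lysophosphatidylserine were hardly seen, with 1, 0 and 1 counts over the 6 libraries for GPR34, P2RY10 and GPR174. Of the 9 genes listed with PLA1A (these receptors, related lipases and lysophosphatidylserine hydrolases), 4 were tested and all 4 were lower, with a median log2 fold change of -1.30. A call of lower was made for 35.9% of all tested genes, and this list was not tested as a set. PLA2G2A, a secreted phospholipase A2, averaged 129.5 ± 7.26 CPM in shNEDD9 and 1923 ± 31.5 CPM in shNTC, which is 14.8-fold lower. ABHD6, a monoacylglycerol lipase gene, was 2.94-fold lower and LIPH, a phosphatidic acid phospholipase gene of the same lipase family as PLA1A, 2.06-fold lower.

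AMACR encodes the racemase that readies branched-chain fatty acids and bile acid intermediates for oxidation, and its protein is a diagnostic marker of prostate cancer (chromosome 5, 33986178 to 34008108, minus strand). It was at 13.3, 11.6 and 12.8 CPM in shNEDD9, against 32, 33.9 and 29.1 CPM in shNTC. Every shNEDD9 library was below every shNTC library, and the change was 2.499-fold lower (log2 fold change -1.32, SE 0.11, edgeR adjusted p = 1.82e-34). Of its annotation, 3135 of its 4838 exon bases (64.8%) are shared with other annotated genes, among them 2660 with the readthrough gene C1QTNF3-AMACR, which had 1 count over the shNEDD9 and 1 over the shNTC libraries. How reads in shared bases were treated is not given in the sources used here.

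A list of other genes of branched fatty acid oxidation was read beside AMACR. Of 15 genes, 14 were tested, 9 were lower, 0 were higher and 5 were not called, with a median log2 fold change of -0.36. Of all tested genes, 35.9% were called lower and 35.5% higher, and the list was not tested as a set. CROT, which exports shortened chains as carnitine esters, was 1.76-fold lower (44.6 ± 2.13 CPM in shNEDD9 and 78.1 ± 0.995 CPM in shNTC, n = 3 each), and HSD17B4, the bifunctional enzyme that acts after AMACR, 1.73-fold lower. ACOX2, the oxidase of branched chains, was at 6.47 ± 1.26 CPM in shNEDD9 and 6.79 ± 2.02 CPM in shNTC and was not called (edgeR adjusted p = 0.986).

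NCALD encodes neurocalcin delta, a calcium sensor protein of neurons (chromosome 8, 101686543 to 102124907, minus strand). It was at 21, 19.6 and 21.3 CPM in shNEDD9, against 54.9, 58.4 and 56.7 CPM in shNTC. The groups were far apart, and the change was 2.72-fold lower (log2 fold change -1.45, SE 0.08, edgeR adjusted p = 8.79e-68). Of 12 other neuronal calcium sensor genes, 5 were tested, 2 were higher, 1 was lower and 2 were not called. Among all tested genes, 35.5% were called higher and 35.9% lower. HPCAL4 was 2.47-fold higher at 4.75 ± 0.66 CPM in shNEDD9 and 2.03 ± 0.79 CPM in shNTC (n = 3 each). KCNIP3 was 1.92-fold higher, but not called with DESeq2 (adjusted p = 0.0637) or when shNTC replicate 1 was left out (adjusted p of 0.119 in edgeR). NCS1 was 1.13-fold lower, but not called under 5 alternatives: DESeq2, no count filter, and leaving out shNEDD9 replicate 2 or 3 or shNTC replicate 3 (adjusted p 0.0595 to 0.128). HPCAL1 was not called (18.2 CPM in shNEDD9 and 17.4 CPM in shNTC, edgeR adjusted p = 0.605).

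ARHGDIB encodes an inhibitor that holds small GTPases in the cytosol and is best known from blood cells (chromosome 12, 14942017 to 14961728, minus strand). It was at 42, 38.3 and 36.9 CPM in shNEDD9, against 52.6, 49.3 and 51.6 CPM in shNTC. The groups did not overlap, and the change was 1.33-fold lower (log2 fold change -0.42, SE 0.07, edgeR adjusted p = 3.08e-08). Of 8 leukocyte markers, CD3E, CD2 and LCP2 had 0 counts and PTPRC had 1, and CD14 made up most of a summed level of 4.36 to 5.14 CPM in shNEDD9 and 3.60 to 5.03 CPM in shNTC.

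Markers of other cell types were also read. Of 8 endothelial markers, CDH5 had 0 counts and the list summed to 2.54 to 2.85 CPM in shNEDD9 and 2.29 to 3.46 CPM in shNTC. Of 8 fibroblast markers, FAP had 0 counts, and the summed level was 47.5 to 54.6 CPM in shNEDD9 and 26.8 to 34.6 CPM in shNTC, most of it LUM. LUM, a matrix proteoglycan gene, averaged 45.2 ± 3.18 CPM in shNEDD9 and 19.2 ± 0.57 CPM in shNTC and was called 2.37-fold higher (edgeR adjusted p = 3.18e-42). COL1A1, a collagen gene, was called 1.46-fold lower (4.64 ± 0.64 CPM in shNEDD9 and 7.23 ± 2.25 CPM in shNTC). The other fibroblast markers averaged at most 2.08 CPM in either group, and the part of these markers in the results was not tested. In these bulk libraries a lower level in every cell and the loss of expression from some cells cannot be told apart.

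Per kilobase of exon (RPKM, from GENCODE exon lengths), the levels of the 10 genes spanned more than 3 orders on a log10 scale in shNEDD9. CRISP3 was the most abundant at 199 ± 2.19 RPKM in shNEDD9 and 113 ± 1.23 RPKM in shNTC (SD, n = 3 each). ADAMTS1 moved most in rank. It held rank 5 in shNEDD9, at 13.3 ± 0.60 RPKM, and rank 2 in shNTC, at 109 ± 1.64 RPKM, close under CRISP3. PLA1A (72.7 RPKM in shNEDD9 and 56.6 RPKM in shNTC), TDRD1 (25.7 RPKM in shNEDD9 and 26.1 RPKM in shNTC) and ARHGDIB (18.6 RPKM in shNEDD9 and 24.4 RPKM in shNTC) followed. PLAT was at 7.28 RPKM in shNEDD9 and 4.38 RPKM in shNTC, while AMACR (2.59 RPKM in shNEDD9 and 6.55 RPKM in shNTC) and NCALD (2.56 RPKM in shNEDD9 and 7.04 RPKM in shNTC) overlapped each other in both groups. The AMACR value divides by all 4838 exon bases, of which 64.8% are shared with other genes. If reads in shared bases were not counted, it is understated, and its rank and overlap with NCALD depend on this. PLAU (0.0743 RPKM in shNEDD9 and 0.451 RPKM in shNTC) and ADAM19 (0.0369 RPKM in shNEDD9 and 0.732 RPKM in shNTC) were lowest and overlapped each other as well.

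**Figure D3:**
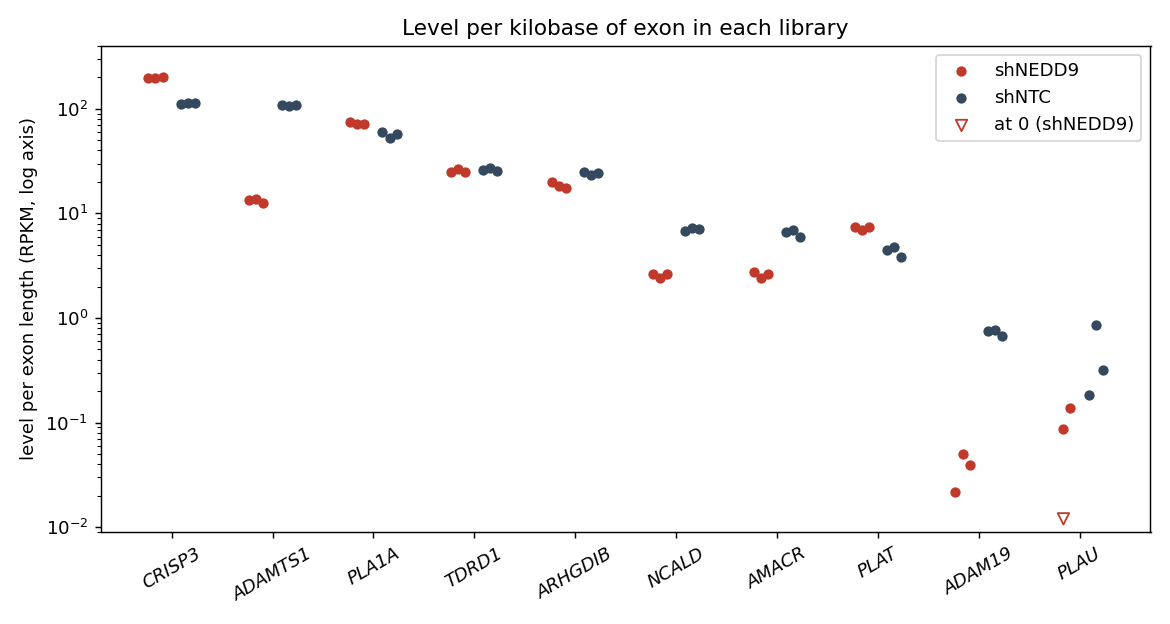
Level per kilobase of exon (RPKM, log axis) of the 10 genes in each shNEDD9 library (red, left of each pair) and each shNTC library (dark, right), ordered by their shNTC mean. The open triangle marks a library without a PLAU count. ADAMTS1 lies near CRISP3 in shNTC and between ARHGDIB and PLAT in shNEDD9, while TDRD1 is level between the groups.

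The 10 genes lie on 7 chromosomes, and their tested neighbours were compared by position. PLAT and its nearest tested neighbour AP3M2, 3.56 kb away, were both higher (log2 fold change 0.76 and 0.68), while IKBKB on the other side, 63.6 kb away, was lower (-0.39). The nearest tested gene on the higher-coordinate side of ADAM19, SOX30 (a germ cell transcription factor gene, 49.9 kb away), had 0, 0.127 and 0.202 CPM in shNEDD9, against 4.30, 4.71 and 3.44 CPM in shNTC. It too passed the filter only through shNTC. CYFIP2, which overlaps the other end of ADAM19, fell by 0.25 on the log2 scale. AMACR was lower between neighbours that were higher, TARS (log2 fold change 1.74) and RAI14 (0.86), at 517 and 648 kb. ARHGDIB lay between ERP27, which fell by 0.94, and RERG, at 2.17. Over the 10 nearest tested genes of each, the median log2 fold change ranged from -0.44 (CRISP3) to 0.40 (AMACR).

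The genes whose pattern across the 6 libraries was nearest to that of CRISP3 were LGALS3BP, RPL37A and RPL19, at distances of 0.030 to 0.038 on a mean-centred log2(CPM + 0.5) scale. Their log2 fold changes were each 0.82, a match that the measure itself selects for, and shared regulation was not tested. For ADAM19 the nearest were EGR1, MYOF and SLC15A2, at distances of 0.11 to 0.27 and log2 fold changes of -3.06 to -3.14. The added 0.5 CPM shrinks the change of a gene as low as ADAM19, whose fitted value was -4.16.

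A wider list of 24 genes linked to ERG in prostate cancer was read beside the 10. Of these 18 were tested, 9 were higher, 7 lower and 2 not called, with a median log2 fold change of 0.12. Shares of all tested genes called were 35.5% higher and 35.9% lower. FZD4, a Wnt receptor gene, was 3.19-fold higher (698 ± 9.36 CPM in shNEDD9 and 219.7 ± 8.56 CPM in shNTC, n = 3 each), EZH2, a histone methyltransferase gene, 2.63-fold and MYC 2.09-fold higher. KCNH8, a potassium channel gene reported as raised in ERG-positive tumours, was 16.7-fold lower (1.57 ± 0.38 CPM in shNEDD9 and 25.8 ± 1.03 CPM in shNTC). SLC45A3, which encodes the prostate protein prostein, was 3.91-fold lower. IL1R2, a decoy receptor gene, fell by 1.58 on the log2 scale, at 0.97 ± 0.66 CPM in shNEDD9 and 3.38 ± 1.52 CPM in shNTC. In shNEDD9 replicate 1 it was at 0.336 CPM, under the floor of 0.504 CPM for that library.

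**Figure D4:**
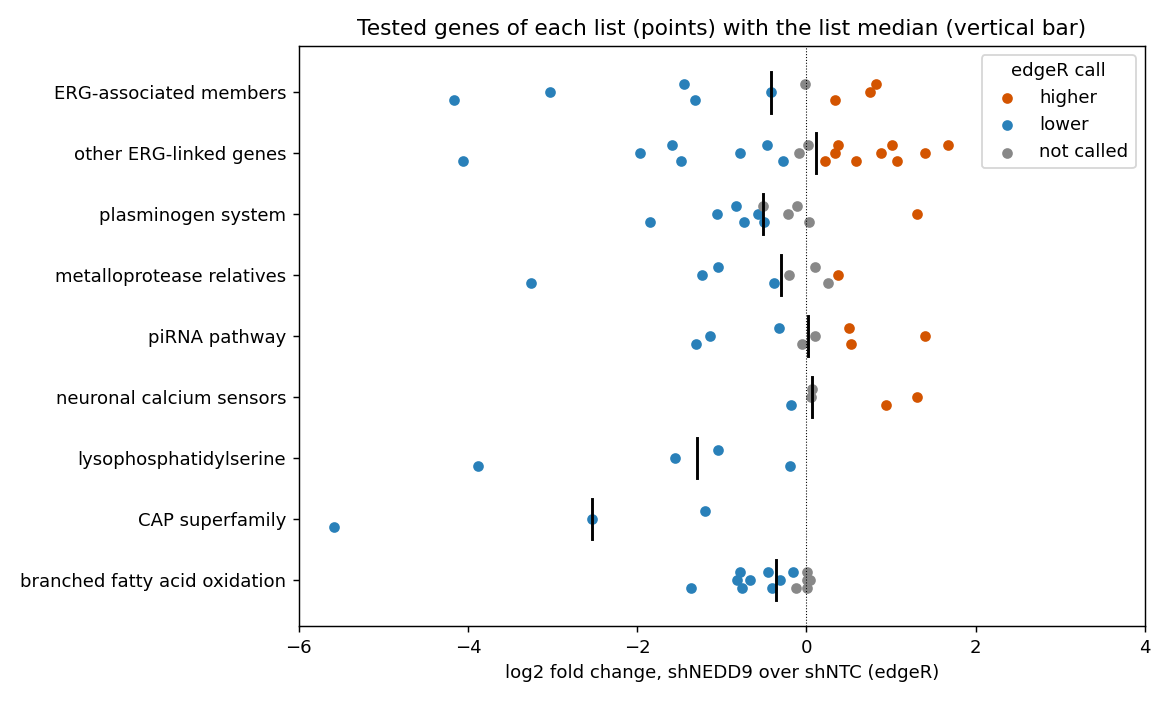
Log2 fold change, shNEDD9 over shNTC, of the tested genes of each list (points, coloured by edgeR call), with the list's median as a vertical bar. The 9 tested followed genes and the wider ERG list spread to either side of 0. No gene of the branched fatty acid oxidation, lysophosphatidylserine or CAP superfamily list was called higher. Of these lists 14, 4 and 3 genes were tested, and 35.5% of all tested genes were called higher.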

How the data were processed

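RNA was measured in 3 shNEDD9 and 3 shNTC libraries of VCaP cells, grouped by sample title. Per the labels' protocols the library kit keeps strand. The authors deposited raw counts, as whole numbers for each gene. Tools listed in the submitters' processing notes are STAR 2.5.3a, Subread 1.6.2, featureCounts, cutadapt 1.9 and FastQC 0.11.5, with hg19 and GRCh38 as builds of no stated role. Strand setting and annotation release are not given in the sources used here. All 58735 identifiers occur in GENCODE release 29 (GRCh38), the source of coordinates and exon lengths, and 1 empty row was left out.

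The fit across all genes was edgeR 4.0.16, quasi-likelihood (R 4.3.3; TMM factors, filterByExpr at a minimum count of 10, no covariate), and p-values were adjusted by Benjamini-Hochberg over the 13958 tested genes. An adjusted p under 0.05 was a call. Fold changes are fitted values, shNEDD9 over shNTC. SE is the absolute log2 fold change over the root of F. The script was tested on simulated counts. Intervals and floors cover counting error only. Ratios of summed counts are scaled by library totals, without TMM factors.

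The members and lists were chosen with earlier results of these data known. Named genes were the members, NEDD9, ERG and TMPRSS2, up to 3 called genes per list and direction of largest change at 1 CPM or more, the nearest patterns and the neighbours. PLAUR, ACOX2, HPCAL1, ADAMTS9, ADAM12, CRISP2, LUM, COL1A1 and genes near 0 counts were added after their values were seen. Alternatives were RLE, upper-quartile and no factors, other filters, DESeq2 1.42.0, limma-voom (limma 3.58.1), a replicate block and each library left out. Some genes of the lists, and 1 list, are not reported here.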

Additional observations from a re-analysis of the deposited data

How the results depend on the processing

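Under all 14 alternatives 3 of the followed genes were called higher and 5 lower, except that 6 were lower without a count filter, where PLAU was also tested. Of 658 recomputed fold changes of 47 named genes, 640 kept direction and call, 13 kept direction but were no longer called (TDRD5, KCNIP3, NCS1 and a gene not described here), and 5 turned sign, each of TDRD1 and each close to 0: 0.00199 with library totals alone, 0.00722 without a count filter, and positive without shNEDD9 replicate 1, shNEDD9 replicate 3 or shNTC replicate 2, in a range over all 6 single-library omissions of -0.045 to 0.00913. TDRD1 was called in none of them (adjusted p 0.424 to 0.971 over its alternatives).

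Same-numbered replicates did not deviate together (correlations -0.03, 0.01 and 0.03). Replicates differed by little more than counting gives, so this check could miss a small effect shared by replicates of the same number. With the replicate number as a block, 4881 of all genes were called higher and 4953 lower, against 4950 and 5014 without it. Small list counts moved: called-higher metalloprotease relatives were 2 (ADAM12 added) rather than 1 with a mean of at least 1 CPM, without a filter and without any library but shNEDD9 replicate 2, neuronal calcium sensors called higher were 1 rather than 2 with DESeq2 and without shNTC replicate 1, and those called lower 0 rather than 1 with DESeq2, without a filter and without shNEDD9 replicates 2 or 3 or shNTC replicate 3. CAP genes called higher were 1 (CRISP2) rather than 0 without a filter and without shNTC replicates 2 or 3. The cause of these moves was not tested. Where leaving out a library added ADAM12 or CRISP2, it passed the filter only through shNEDD9 libraries and so had to differ. The mean of at least 1 CPM was taken over both groups, and ADAM12 averaged 1.79 CPM in shNEDD9 and 0.34 CPM in shNTC. Depth limits PLAU and ADAM19, with at most 4 counts in any shNEDD9 library.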
